A study of Mus musculus with 6 samples.

Results

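The ciliary margin and Zic genes are 8 genes used to mark the far edge of the embryonic retina, and they were taken by symbol from the deposited table of normalized read counts. They are Otx1, Msx1, Ccnd2, Gja1, Wfdc1, Wls, Zic1 and Zic2, which are 8 of 26147 genes in the table, and each symbol matched 1 row. Retinas were taken from mouse embryos of embryonic day 13.5 on a C57BL/6J background, and polyadenylated RNA gave 3 libraries of wild-type siblings and 3 of Tbx3 conditional knockouts (Tbx3 cKO). Wild-type siblings carried no Dkk3-Cre and were Tbx3Fl/+, with 1 floxed allele. The Tbx3 cKO embryos were Dkk3-Cre+ and Tbx3∆Fl/∆Fl, so an effect of Cre and the loss of Tbx3 cannot be told apart. The Dkk3-Cre transgene is used to recombine floxed alleles in retinal progenitors. How many embryos each library pooled, and which libraries came from 1 litter, is not stated in the labels, so the p-values refer to the spread between samples, whether biological or technical.

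The ciliary margin is the ring where neural retina meets pigment epithelium, and it later forms the ciliary body and iris. Wnt and BMP signals are known to maintain it, at the cost of neuron formation, and its progenitors divide more slowly than those of the central retina. Otx1 and Msx1 encode homeobox factors of this ring. Wls carries Wnt ligands to the cell surface. Ccnd2 encodes a D-type cyclin, Gja1 the gap junction protein connexin 43, and Wfdc1 a small secreted protein with a whey acidic protein domain. Zic1 and Zic2 encode zinc finger factors of peripheral progenitors, and Zic2 also directs the uncrossed projection of ganglion cells. Several of these genes are also known outside the retina, Gja1 in lens epithelium and pigment epithelium, and Zic1 and Msx1 in mesenchyme around the eye.

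Tbx3 itself stood at 1998, 2558 and 2577 in the wild types, against 40.3, 47.8 and 58.9 in the knockouts, a log2 difference of -5.58 (SE 0.20, limma adjusted p = 0.000342). The libraries held an estimated 21482152 to 27174646 reads, and all 8 genes passed the filter on low values (at least 10 in at least 3 libraries), which left 18914 genes tested. Of these, 12 genes (0.0634%) passed an adjusted p of 0.05 by limma. The 8 markers of neural retina progenitors, which include Rax and Pax6, were present in all libraries, with sums of 65068 to 70011 in the wild types, against 44945 to 69956 in the knockouts. Wild type 1 and Tbx3 cKO 3 stood apart from the other libraries. The 10 ganglion cell markers summed to 89538 in wild type 1 against 15727 and 26713 in wild type 2 and 3, and to 766 in Tbx3 cKO 3 against 9869 and 5424 in Tbx3 cKO 1 and 2. Lens markers split the libraries another way, at 64031 to 176192 in wild type 2, wild type 3 and Tbx3 cKO 2 and at 651 to 1051 in wild type 1, Tbx3 cKO 1 and Tbx3 cKO 3. A log2 ratio between globin genes, also used as a term in an alternative fit, split the libraries differently again. Wild type 1 stood at -1.59 and Tbx3 cKO 1 at -0.42, while the remaining libraries ranged from 2.26 to 2.54. All libraries carry the same label of embryonic day 13.5, and whether they differ in stage or blood content was not tested. In bulk RNA, fewer cells of a type and less RNA per cell cannot be told apart. Each member is therefore also given without wild type 1 and Tbx3 cKO 3, and within the libraries of like lens content. Wild type 1 and Tbx3 cKO 3 were picked from the values of these same data. Leaving them out can narrow the spread within groups by construction, so genes that pass in that fit are a description only.

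Upstream sequence was at hand for 4 of the 8 genes, from RefSeq on build GRCm38.p6, and covers the 250 bases before each start. All 4 sequences at hand are shown. Gja1 and Wls were among the members with the most similar profiles. Msx1 was the member with a negative difference, and Zic1 was low in wild type 1 and nearly level elsewhere. They lie at chr10:56377050-56377299 on the plus strand for Gja1, chr3:159839400-159839649 on the plus strand for Wls, chr5:37824586-37824835 on the minus strand for Msx1 and chr9:91365769-91366018 on the minus strand for Zic1. All are printed 5′ to 3′ along the gene, with each CpG dinucleotide in capitals.
Gja1: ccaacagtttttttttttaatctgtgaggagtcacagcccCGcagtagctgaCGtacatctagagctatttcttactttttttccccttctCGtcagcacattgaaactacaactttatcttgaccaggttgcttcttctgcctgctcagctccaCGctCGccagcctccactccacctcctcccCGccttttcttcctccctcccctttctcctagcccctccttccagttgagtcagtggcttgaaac
Wls: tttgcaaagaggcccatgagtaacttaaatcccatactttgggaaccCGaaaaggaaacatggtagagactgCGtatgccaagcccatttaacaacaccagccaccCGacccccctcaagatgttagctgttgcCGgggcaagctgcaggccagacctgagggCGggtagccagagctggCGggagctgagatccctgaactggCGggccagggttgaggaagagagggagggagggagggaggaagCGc
Msx1: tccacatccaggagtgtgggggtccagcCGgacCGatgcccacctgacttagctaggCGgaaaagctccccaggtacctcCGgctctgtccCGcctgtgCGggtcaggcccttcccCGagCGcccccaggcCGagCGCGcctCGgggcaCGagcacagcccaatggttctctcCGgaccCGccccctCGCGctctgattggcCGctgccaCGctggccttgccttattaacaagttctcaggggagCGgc
Zic1: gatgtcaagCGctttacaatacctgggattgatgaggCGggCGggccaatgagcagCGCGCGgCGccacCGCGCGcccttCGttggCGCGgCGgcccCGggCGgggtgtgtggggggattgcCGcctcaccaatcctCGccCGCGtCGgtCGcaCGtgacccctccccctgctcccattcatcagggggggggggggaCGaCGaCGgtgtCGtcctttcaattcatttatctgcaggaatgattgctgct

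The windows of Msx1 and Zic1 held 20 and 27 CpG dinucleotides. Those of Gja1 and Wls held 6 and 8, beside a median of 6 over 32536 upstream windows of the same length. A search on both strands for 4 short motifs found 0 matches in these 4 windows. The motifs were AGGTGT, the core of T-box sites, CTTTGA, the core of TCF/LEF sites through which Wnt signals act, TAATCC, the core of OTX sites, and CTGCTG, a core of ZIC sites. They occurred in 11.9, 13.9, 6.25 and 25.5% of all windows.

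After loss of Tbx3, 7 of the 8 genes had a positive log2 fold change and Msx1 a negative one, but none passed the test over all genes by limma. At an unadjusted p under 0.05 by limma, 1 of the 8 was higher (Otx1) and none lower, beside 6.39% of all genes tested higher and 7.16% lower. The groups did not overlap for Gja1 and Zic1, both higher in Tbx3 cKO, where 10.6% of all genes were higher without overlap and 11.7% lower. The median log2 fold change of the 8 was 0.69, beside -0.02 over all genes tested, of which 48.0% were positive. The genes were proposed with earlier results of these data in view, so these counts are a description. Without wild type 1 and Tbx3 cKO 3, the median was 0.26, 6 of the 8 were positive and none passed by limma, beside 0.227% of all genes tested.

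**Figure D1:**
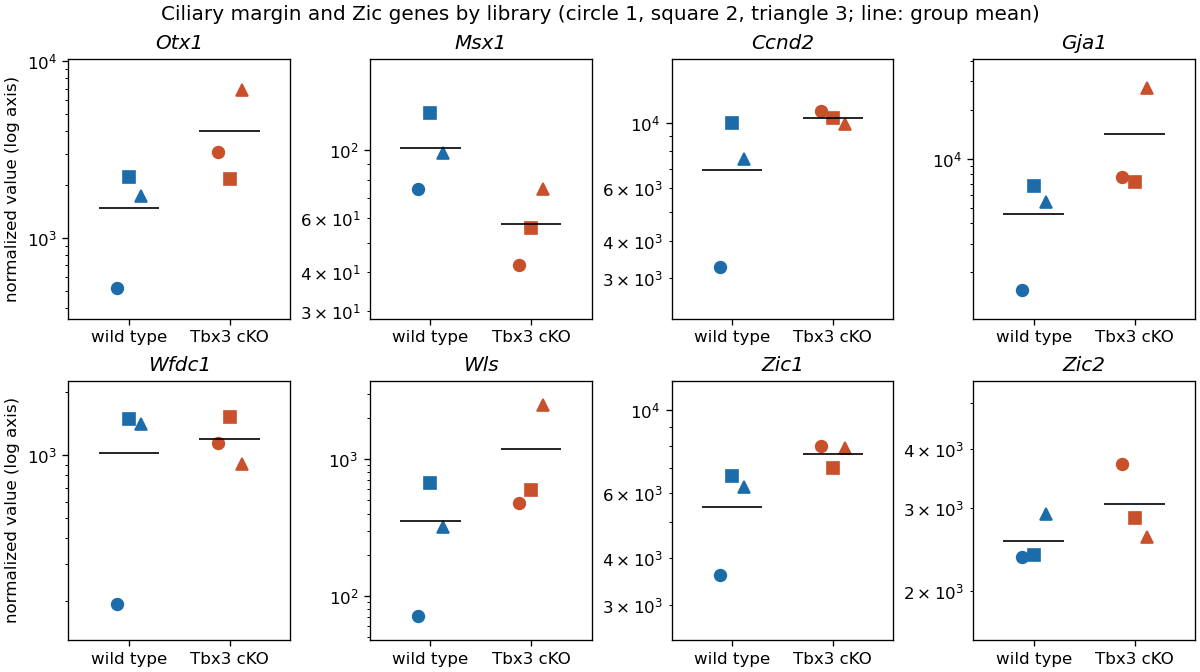
Normalized values of the 8 genes (log axis) in each library of wild type (blue) and Tbx3 cKO (orange), with circles, squares and triangles for libraries 1, 2 and 3 and a line at the group mean. Wild type 1 is the lowest library in 7 of 8 panels, and Tbx3 cKO 3 stands highest for Otx1, Gja1 and Wls.

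Otx1 (ENSMUSG00000005917), a homeobox factor needed for the ciliary process, had values of 522, 2199 and 1729 in the wild types, against 3050, 2141 and 6859 in the knockouts. The wild type 1 library was low, Tbx3 cKO 3 was high, and Tbx3 cKO 2 fell just below wild type 2, so the groups overlapped. The log2 fold change was 1.50 (SE 0.62, 95% interval 0.04 to 2.95), with an adjusted p of 0.365 by limma over all genes and 0.2 by the exact two-sided permutation test, which cannot go below 0.1 with 3 against 3. Without wild type 1 and Tbx3 cKO 3 the log2 fold change was 0.39 (SE 0.20, limma adjusted p = 0.681). Its relative Otx2, a factor of pigment epithelium and photoreceptor precursors, was 2923, 1313 and 1574 in the wild types, against 1165, 1349 and 3542 in the knockouts. Otx2 was high in both of the libraries that stood apart, while Otx1 was low in wild type 1 and high in Tbx3 cKO 3. The log2 ratio of Otx1 to Otx2 was -2.48, 0.74 and 0.14 in the wild types, against 1.39, 0.67 and 0.95 in the knockouts, and the exact permutation p was 0.2.

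Msx1 (ENSMUSG00000048450), a homeobox factor that responds to BMP, was the member that was lower in Tbx3 cKO. Its values were 74.7, 132 and 97.8 in the wild types, against 42.3, 55.8 and 74.7 in the knockouts. Wild type 1 and Tbx3 cKO 3 gave the same rounded value, and apart from that pair all wild types lay above all knockouts. The fitted log2 difference was -0.81 (SE 0.35, 95% interval -1.64 to 0.03, limma adjusted p = 0.372, exact permutation p = 0.2). Without wild type 1 and Tbx3 cKO 3 it was -1.21 (SE 0.35, limma adjusted p = 0.425), which is farther from 0 than with all libraries. Msx2, a relative, had values of 15.9, 93.0 and 56.5 in the wild types, against 19.2, 37.5 and 88.4 in the knockouts, with overlapping groups. Msx3 was listed too but had no values.

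Because Msx1 responds to BMP, a list of 8 BMP response genes was set beside it. Whether BMP signals bear on the values of Msx1 in these libraries was not tested. On this list 8 of 8 log2 fold changes were below 0 and the median was -1.92, and 1 of them (Id1, a dominant-negative helix-loop-helix factor) passed over all genes, from 1636 ± 106 to 422 ± 78.3 (SD, n = 3 each, limma adjusted p = 0.0180). At an unadjusted p under 0.05 by limma 6 of the 8 were lower, beside 7.16% of all genes tested. The others on the list were Smad6 (log2 fold change -0.11, limma unadjusted p = 0.617) and Smad7 (-0.32, 0.126), both with overlapping groups. Without wild type 1 and Tbx3 cKO 3 the median was -1.69. In that fit 3 of the 8 passed by limma, beside 0.227% of all genes tested. They were Id1 (limma adjusted p = 0.00998), Id3 (0.0266) and Smad9 (0.0281). The BMP receptor decoy gene Bambi was 475 ± 103 against 129 ± 40.3 (limma adjusted p = 0.134). Among 11627 other genes with a mean of at least 100, Id3 had the profile most like that of Msx1 over the 6 libraries, with 3515, 4573 and 4088 in the wild types, against 1964, 2004 and 3104 in the knockouts. Likeness was taken as the root mean square difference of log2 values centred on each gene's mean, which was 0.17 for this pair.

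Gja1 (ENSMUSG00000050953) had values of 1556, 6765 and 5432 in the wild types, against 7713, 7204 and 27242 in the knockouts. All Tbx3 cKO libraries lay above all wild types, yet Tbx3 cKO 1 and 2 exceeded wild type 2 by little, and Tbx3 cKO 3 stood 3.78-fold above Tbx3 cKO 2. Gja1 had a log2 fold change of 1.58 (SE 0.69, 95% interval -0.05 to 3.20, limma adjusted p = 0.372, exact permutation p = 0.1). Without wild type 1 and Tbx3 cKO 3 it was 0.30 (SE 0.14, limma adjusted p = 0.659). The profile of Gja1 was close to that of Otx1, at a root mean square difference of 0.20, the smallest among the 28 pairs of members.

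Wls (ENSMUSG00000028173), the carrier of Wnt ligands, varied most. It was 71.0, 671 and 321 in the wild types, against 480, 598 and 2504 in the knockouts, so it spanned 9.45-fold among wild types and 5.22-fold among knockouts. Tbx3 cKO 1 and 2 both lay between wild type 3 and wild type 2. Its log2 fold change of 1.84 had an SE of 0.92 (95% interval -0.32 to 4.01, limma adjusted p = 0.403, exact permutation p = 0.3), and it was 0.21 (SE 0.35, limma adjusted p = 0.899) without wild type 1 and Tbx3 cKO 3. The wild-type spread of Wls on the log2 scale was wider than that of 97.7% of genes tested.

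Wfdc1 (ENSMUSG00000023336) was 195, 1482 and 1409 in the wild types, against 1146, 1518 and 908 in the knockouts. Wild type 1 lay 7.59-fold below wild type 2, and the other libraries of both groups interleaved. For Wfdc1 the log2 fold change was 0.65 with all libraries (SE 0.75, 95% interval -1.12 to 2.42, limma adjusted p = 0.696, exact permutation p = 0.8) and -0.31 without wild type 1 (SE 0.22, limma adjusted p = 0.724). Without Tbx3 cKO 3 as well it was -0.13 (SE 0.16, limma adjusted p = 0.857). Unlike Otx1, Gja1 and Wls, Wfdc1 had its lowest knockout value in Tbx3 cKO 3.

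**Figure D2:**
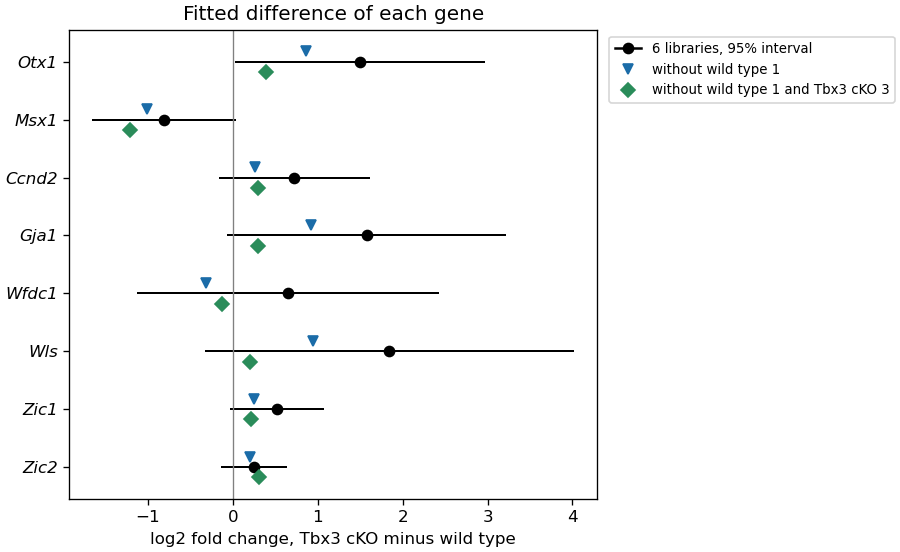
Log2 fold change (Tbx3 cKO minus wild type) of each gene with its 95% interval from all 6 libraries (black), without wild type 1 (blue triangles) and without wild type 1 and Tbx3 cKO 3 (green diamonds). Leaving out both libraries brings Otx1, Gja1 and Wls to 0.39, 0.30 and 0.21, while Msx1 goes to -1.21 and Zic2 to 0.31.

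Ccnd2 (ENSMUSG00000000184), a cyclin that drives entry into S phase, had values of 3276, 9987 and 7510 in the wild types, against 10905, 10344 and 9865 in the knockouts. The 3 knockouts lay within 1.11-fold of each other, a spread that only 6.71% of genes tested undercut, and wild type 2 fell inside their range. On the log2 scale the difference was 0.73 (SE 0.37, 95% interval -0.16 to 1.61, limma adjusted p = 0.413, exact permutation p = 0.2) and 0.29 without wild type 1 and Tbx3 cKO 3 (SE 0.16, limma adjusted p = 0.692). Ccnd1, the main D-type cyclin of central retinal progenitors, ran from 80640 in wild type 1 to 5224 in Tbx3 cKO 3. It was 28965 and 35783 in the other wild types and 28530 and 23905 in the other knockouts. Its groups did not overlap (log2 fold change -1.52, SE 0.68, limma adjusted p = 0.378), beside 11.7% of all genes lower without overlap. Without wild type 1 and Tbx3 cKO 3 the log2 fold change of Ccnd1 was -0.30 (SE 0.17, limma adjusted p = 0.699). Ccnd3 was 3000, 4375 and 4074 in the wild types, against 4018, 4117 and 3873 in the knockouts.

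The balance of the D-type cyclins was compared as a ratio, which does not depend on library scaling apart from the pseudocount of 1. Ccnd2 over Ccnd1 on the log2 scale was -4.62, -1.54 and -2.25 in the wild types, against -1.39, -1.21 and 0.92 in the knockouts. The groups did not overlap, and the means differed by 2.24, from -2.80 ± 1.61 to -0.56 ± 1.28 (SD, n = 3 each, exact permutation p = 0.1). Wild type 1 held the lowest ratio and Tbx3 cKO 3 the highest. Without these libraries the ratios were -1.54 and -2.25 in the wild types, against -1.39 and -1.21 in the knockouts. Over the 7 ratios compared the Benjamini-Hochberg adjusted p was 0.35 for this ratio by the exact permutation test. The gap between wild type 2 and Tbx3 cKO 1, the nearest libraries of the 2 groups, was small beside the spread within each group. The ratio of Ccnd2 to Ccnd3 also did not overlap, at 0.73 ± 0.55 against 1.37 ± 0.06 (SD, n = 3 each, exact permutation p = 0.1, adjusted 0.35).

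**Figure D3:**
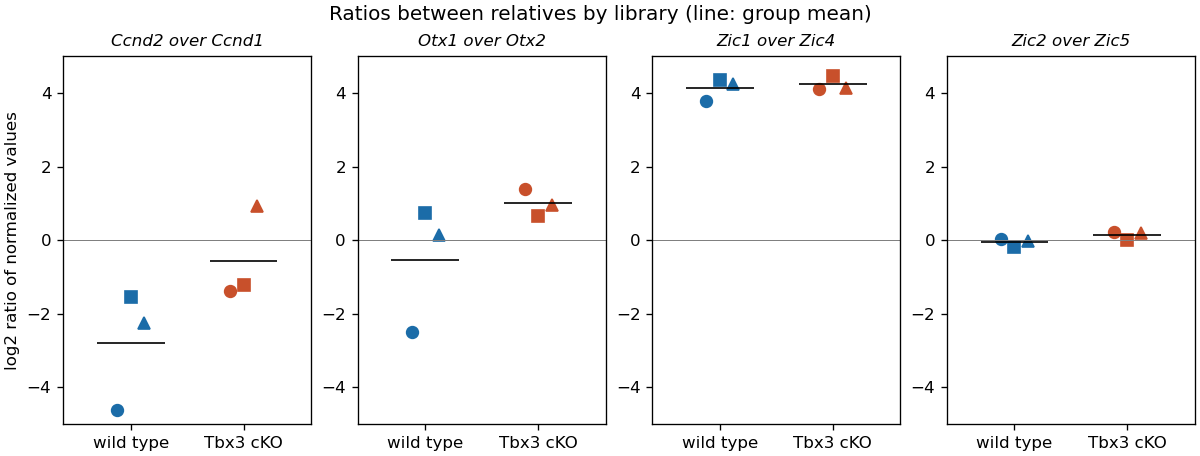
Log2 ratio of normalized values between relatives in each library of wild type (blue) and Tbx3 cKO (orange), with a line at the group mean and circles, squares and triangles for libraries 1, 2 and 3. Ccnd2 over Ccnd1 lies at -4.62 to -1.54 in the wild types, against -1.39 to 0.92 in the knockouts, while the ratios of Zic1 to Zic4 stay within 3.78 to 4.45 and those of Zic2 to Zic5 within -0.19 to 0.23.

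Zic1 (ENSMUSG00000032368) had values of 3608, 6645 and 6207 in the wild types, against 8001, 6978 and 7881 in the knockouts. All knockouts lay above all wild types, and Tbx3 cKO 2 exceeded wild type 2 by only a small margin. The log2 fold change was 0.52 (SE 0.23, 95% interval -0.02 to 1.06, limma adjusted p = 0.373, exact permutation p = 0.1), and 0.22 (SE 0.12, limma adjusted p = 0.698) without wild type 1 and Tbx3 cKO 3. Unlike Gja1 and Wls, Zic1 was no higher in Tbx3 cKO 3 than in Tbx3 cKO 1.

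Zic2 (ENSMUSG00000061524) was 2356, 2376 and 2905 in the wild types, against 3717, 2852 and 2601 in the knockouts. Its groups overlapped, and it was the member on which wild type 1 and Tbx3 cKO 3 had least bearing. This gave a log2 fold change of 0.25 (SE 0.16, 95% interval -0.12 to 0.63, limma adjusted p = 0.477, exact permutation p = 0.3), and 0.31 (SE 0.17, limma adjusted p = 0.696) without these libraries. The interval leaves room for a difference of up to 0.63 on the log2 scale.

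Zic1 lies next to Zic4, and Zic2 next to Zic5, among the coding genes of the RefSeq table (GRCm38.p6). Zic4 was 261, 324 and 327 in the wild types, against 462, 317 and 452 in the knockouts (log2 fold change 0.42, SE 0.20, limma adjusted p = 0.397). Zic5 was 2289, 2706 and 2934 in the wild types, against 3176, 2849 and 2272 in the knockouts. The log2 ratio of Zic1 to Zic4 was 4.13 ± 0.30 in the wild types, against 4.23 ± 0.20 in the knockouts (SD, n = 3 each, exact permutation p = 0.8). That of Zic2 to Zic5 was -0.05 ± 0.12 and 0.14 ± 0.12 (SD, n = 3 each, exact permutation p = 0.2). For both neighbouring pairs the ratios of the groups overlapped.

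Levels can be set side by side only per length. The length used was the union of all annotated exons of a gene in GENCODE M21 (GRCm38), which is not the authors' annotation. It was 10257 bases for Gja1 and 2880 for Zic2. This union can be longer than the transcripts expressed, which were not determined, so the order below depends on it. In normalized units per kilobase of exon, the wild-type medians were 1090 for Zic1, 916 for Wfdc1, 825 for Zic2, 798 for Ccnd2, 530 for Gja1, 319 for Otx1, 36.5 for Wls and 31.6 for Msx1. In Tbx3 cKO the medians were 1384, 744, 990, 1099, 752, 563, 68.1 and 18.0 in the same order of genes. In the wild-type order, each gene from Zic1 to Otx1 overlapped in range with the next, as did Wls and Msx1. Otx1 and Wls, the neighbours left, did not overlap, with 96.3 as the lowest wild-type value of Otx1 and 76.3 as the highest of Wls. Genes farther apart in the order could be separate too with this choice of length, such as Zic2 (818 to 1009) and Gja1 (152 to 660).

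Profiles over the 6 libraries showed how the members resembled each other. Otx1, Gja1 and Wls formed the steepest profile, lowest in wild type 1 and highest in Tbx3 cKO 3, with pairwise root mean square differences of 0.20 to 0.52 on the log2 scale. Ccnd2 and Zic1 were low in wild type 1 and nearly level elsewhere (difference 0.24), and Msx1 was the most distant from Wls (1.60). Wild type 1 was the lowest library for 7 of the 8 genes, where 24.0% of all genes tested had it lowest. Tbx3 cKO 3 was highest for 3 of the 8, where 26.0% of all genes had it highest. In wild type 2, wild type 3, Tbx3 cKO 1 and Tbx3 cKO 2, the values of Otx1, Ccnd2, Gja1, Wfdc1, Zic1 and Zic2 stayed within 1.29- to 1.76-fold, those of Wls within 2.09-fold and those of Msx1 within 3.13-fold.

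**Figure D4:**
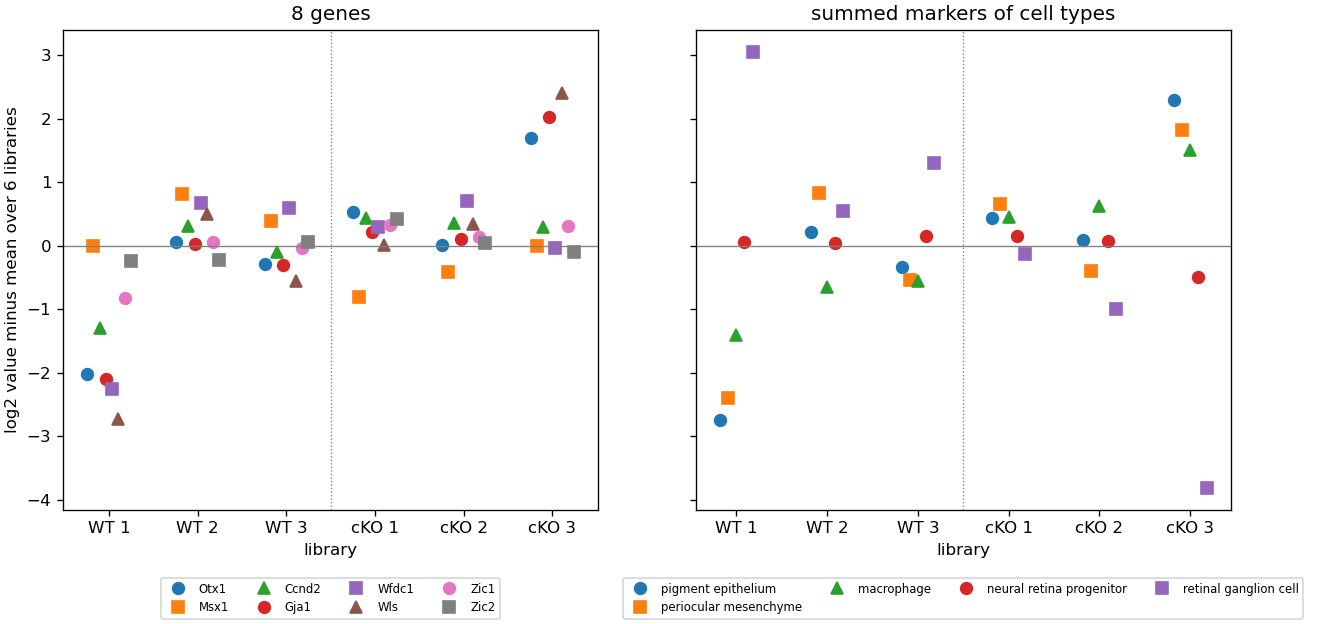
Log2 value minus the mean over the 6 libraries, for the 8 genes (left) and for the summed markers of 5 cell types (right), by library (WT, wild type; cKO, Tbx3 cKO). Otx1, Gja1 and Wls run from -2.02, -2.10 and -2.72 in wild type 1 to 1.70, 2.03 and 2.40 in Tbx3 cKO 3. Pigment epithelium, mesenchyme and macrophage markers were also lowest and highest in these libraries.

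The genes with the most similar profiles were named for each member by the same measure. For Otx1 these were the melanopsin gene Opn4 (difference 0.07), Dock8 (0.17) and the T-box gene Tbx20 (0.17). Opn4 had 19.6, 81.7 and 61.0 in the wild types, against 125, 78.5 and 257 in the knockouts, lowest and highest in the same libraries as Otx1. For Gja1 they were the kinase gene Sgk1 (0.14), Rab38 (0.15), which acts in the making of melanosomes, and Uap1l1 (0.17). For Wls they were Npr3 (0.21), the melanosome matrix gene Pmel (0.22) and Ephx1 (0.22). Ccnd2 was most like Myc (0.15), Syne4 (0.15) and Hspg2 (0.16), and Myc had values of 286, 947 and 829 in the wild types, against 1091, 1239 and 1063 in the knockouts. For Zic1 they were Mocs1 (0.06), Slc27a3 (0.07) and Ephb4 (0.08), and for Zic2 Dennd1c (0.06), Osbpl3 (0.07) and Cfap74 (0.08). Wfdc1 had no gene as close, with Arhgap24 (0.26), Myo5b (0.30) and Clu (0.43) nearest. Beside Id3, the genes most like Msx1 were Plekhh2 (0.22) and Zfp960 (0.22).

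Markers of tissue next to the ciliary margin were lowest and highest in the same libraries as Otx1, Gja1 and Wls. The 9 pigment epithelium markers in the table summed to 738, 5767 and 3918 in the wild types, against 6700, 5252 and 24269 in the knockouts, and none of the 9 was at 0 in any library. All 9 had a positive log2 fold change and none passed over all genes by limma. At an unadjusted p under 0.05 by limma 3 were higher, beside 6.39% of all genes tested. Ttr stood at only 0.0085 and was lowest in Tbx3 cKO 3 (7.37), and Mlana was highest in Tbx3 cKO 1 (70.6). Their median log2 fold change was 1.80, and 0.48 without wild type 1 and Tbx3 cKO 3. Among them, Tfec was 23.6 ± 14.8 against 254 ± 308 and Dct 617 ± 450 against 2909 ± 2752 (SD, n = 3 each). The 10 markers of periocular mesenchyme summed to 943, 8819 and 3428 in the wild types, against 7844, 3760 and 17558 in the knockouts, with none at 0, and Foxc2 and Lum had the smallest p (limma adjusted p = 0.402 for both). Macrophage markers summed to 711, 1194 and 1277 in the wild types, against 2574, 2895 and 5309 in the knockouts. Erythrocyte markers summed to 14714, 47895 and 34211 in the wild types, against 51329, 151625 and 350966 in the knockouts. Both lists had the same lowest and highest libraries, so the pattern was not particular to tissue next to the margin. The part of mesenchyme, macrophages and erythrocytes in the members' values was not tested.

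When the log2 sum of the pigment markers was added to the fit, an alternative chosen after seeing the data, the log2 fold changes were 0.16 for Otx1 (SE 0.14), 0.08 for Gja1 (SE 0.16) and -0.12 for Wls (SE 0.29). Those of Ccnd2, Zic1 and Wfdc1 were 0.12 (SE 0.34), 0.12 (SE 0.19) and -0.42 (SE 0.77), while Msx1 and Zic2 stood at -1.28 (SE 0.37) and 0.30 (SE 0.21). The adjusted p by limma in this fit was 0.827 for Msx1 and 0.999 for the other members. The pigment sum was itself higher in Tbx3 cKO 1 and 3 than in any wild type, so a greater share of pigmented tissue and a difference within the margin cannot be told apart here.

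Within the libraries of high lens markers (Tbx3 cKO 2 against wild type 2 and 3) the log2 differences were small for most members, at 0.13 for Otx1, 0.26 for Ccnd2, 0.25 for Gja1, 0.07 for Wfdc1, 0.37 for Wls, 0.12 for Zic1 and 0.12 for Zic2, with -1.02 for Msx1. Within the libraries of low lens markers (Tbx3 cKO 1 and 3 against wild type 1) they were 3.13 for Otx1, 1.66 for Ccnd2, 3.22 for Gja1, 2.38 for Wfdc1, 3.93 for Wls, 1.14 for Zic1 and 0.40 for Zic2, with -0.40 for Msx1. Each of these rests on 1 library in 1 of the groups and has no test. The set of low lens markers holds both wild type 1 and Tbx3 cKO 3, and the other set holds neither. Lens content and what sets these libraries apart can therefore not be told apart. All 8 kept their sign in both sets of libraries.

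A list of 8 other genes of the ciliary margin (Fzd1, Bmp4, Bmp7, Cdon, Rdh10, Sfrp2, Mitf and Col9a1) had a larger median difference, which was not tested. Of these, 7 were positive, the median log2 fold change was 1.18 and none passed over all genes by limma. At an unadjusted p under 0.05 by limma 5 were higher, beside 6.39% of all genes tested. The values ran from -0.72 (Sfrp2) to 2.26 (Mitf), so the median rests on few genes. Mitf was lowest in wild type 1 (162) and highest in Tbx3 cKO 3 (6305), as was the sum of pigment epithelium markers. Wild type 1 was lowest for 7 of these 8 and Tbx3 cKO 3 highest for 6. Without both libraries the median was 0.64 with 6 positive. In that fit 3 of the 8 passed by limma, all higher, beside 0.227% of all genes tested in either direction. They were Bmp7 (log2 fold change 1.48, limma adjusted p = 0.0207), Fzd1 (1.19, 0.0266) and Col9a1 (1.16, 0.0379). Since the libraries left out were picked from these data, these calls are a description. Col9a1, a collagen of the nonpigmented ciliary epithelium, was 4157, 7474 and 7860 in the wild types, against 18511, 15859 and 23475 in the knockouts (log2 fold change 1.61, SE 0.27, limma adjusted p = 0.174). Its groups did not overlap, beside 10.6% of all genes tested that were higher without overlap. Tbx3 cKO 1 and 2 stood 1.16 above wild type 2 and 3 on the log2 scale, where Otx1 stood 0.39 above. The BMP ligand gene Bmp7 was 337, 760 and 649 against 2017, 1899 and 4396 (log2 fold change 2.22, SE 0.41, limma adjusted p = 0.195). Sfrp2, a Wnt inhibitor, was the negative one, at 43359 ± 13856 against 28713 ± 14829 (SD, n = 3 each). The BMP ligand gene Bmp4 was 34.5, 119 and 87.9 in the wild types, against 73.6, 56.9 and 172 in the knockouts, and its sign turned without wild type 1 and Tbx3 cKO 3, from 0.33 to -0.65 (SE 0.34, limma adjusted p = 0.674).

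Genes of the Wnt pathway, which Wls serves, had no common direction. Of 12 listed 11 were tested, with 6 positive and 5 negative and a median of 0.14, which turned to -0.30 (3 positive, 8 negative) without wild type 1 and Tbx3 cKO 3. None passed over all genes by limma. At an unadjusted p under 0.05 by limma stood 1 higher and 1 lower, beside 6.39 and 7.16% of all genes tested. Higher was the transcription factor gene Tcf7 (417 ± 160 against 735 ± 245). Lower was the feedback inhibitor gene Nkd1 (1756 ± 98.1 against 1321 ± 290, SD, n = 3 each). Axin2, a general target of Wnt signals, was 225, 571 and 377 in the wild types, against 511, 480 and 1285 in the knockouts, lowest and highest in the same libraries as Wls. Porcn, which acylates Wnt ligands before Wls binds them, was 230 ± 34.1 against 263 ± 41.8 (SD, n = 3 each).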

How the data were processed

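The deposited values are a signal, normalized read counts per gene scaled per library by the authors, in 26147 rows for 6 libraries. Rows without a symbol (108, 0.041% of the total) were kept under their identifiers. The submitters' processing notes list STAR 2.7.8a, cutadapt 4.2, Partek and the build GRCm39 (mm39). What each tool did, and which counter, annotation and scaling were applied, is not given in the sources used here. Values were not whole. Their most frequent low value per library, taken as 1 read, gave the estimated depth, and 3 reads, the limit behind a value of 0, are worth 2.69 to 3.41 normalized units (counting error only).

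The 18914 genes that reached 10 in 3 or more libraries were compared as log2(value + 1) with limma-trend (R 4.3.3 and limma 3.58.1). Tests were two-sided, adjusted by Benjamini-Hochberg over all genes and a threshold of 0.05. Fold changes are on the log2(value + 1) scale. Single genes and ratios also had exact two-sided permutation tests. The members, gene lists, naming rule and alternatives were chosen with earlier results of these data known. Named were the members, their relatives, up to 2 genes of smallest p per list and the 3 genes most like each member. Others were named after their values were seen. Alternatives covered pseudocount, filter, scaling, variance estimate, library weights, replicate block, left-out libraries and marker terms. Coordinates are those of the RefSeq table (GRCm38.p6), not of the authors' build.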

Additional observations from a re-analysis of the deposited data

How the results depend on the processing

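None of the 8 genes passed an adjusted p of 0.05 in any of the 21 alternatives with a test (168 fits by limma). Otx1, Msx1, Ccnd2, Gja1, Zic1 and Zic2 kept their sign in all alternatives. The direction of Wfdc1 turned with library weights (-0.15), without wild type 1 and Tbx3 cKO 3 (-0.13) and with a pigment marker term (-0.42), and ran from -0.31 (without wild type 1) to 1.15 when 1 library was left out. Wls turned with the pigment marker term (-0.12). Within the libraries of low lens markers the log2 fold changes were 3.13 for Otx1, -0.40 for Msx1, 1.66 for Ccnd2, 3.22 for Gja1, 2.38 for Wfdc1, 3.93 for Wls and 1.14 for Zic1, with a median of 2.02 over the 8. Within those of high lens markers they were 0.13 for Otx1, 0.25 for Gja1, 0.37 for Wls and 0.12 for Zic1. The low set holds both wild type 1 and Tbx3 cKO 3, and the high set neither. The median of the 8 ran from 0.25 (without wild type 1) to 1.11 (without wild type 2) and was 0.10 with the pigment marker term. Over all genes, 12 were called, against 2 without the mean-variance trend, 55 with library weights, 43 without wild type 1 and Tbx3 cKO 3, 109 with a globin ratio term, 2 with a lens and 5 with a pigment marker term, and 1 to 10 when 1 library was left out (10 without Tbx3 cKO 3). The cause was not tested. The marker terms and the lens split were chosen after seeing the data.

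Whether the replicate number pairs the samples is not stated in the labels, and the correlations do not settle it. Deviations from the group means correlated at 0.33, 0.02 and 0.04 for libraries 1, 2 and 3. The value for library 1 was the highest of all pairs between the groups. Wild type 2 correlated better with Tbx3 cKO 3 (0.23) than with its own number. With a replicate block 13 genes were called and none of the 8. Unadjusted p under 0.05 by limma was reached by 3102 of all genes, against 2562 without the block. Among the members, unadjusted p by limma fell from 0.045 to 0.022 for Otx1, 0.056 to 0.015 for Gja1 and 0.084 to 0.027 for Wls. It also fell for Ccnd2, Wfdc1 and Zic1, and rose from 0.056 to 0.058 for Msx1 and 0.155 to 0.185 for Zic2. All log2 fold changes of the 8 were the same in that fit, with adjusted p of 0.216 (Gja1) to 0.606 (Wfdc1) by limma.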

Other observations

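Values of other connexin genes were as follows. Gja5, a connexin of arteries, was 7.47, 55.4 and 66.4 in the wild types, against 343, 18.2 and 269 in the knockouts. Gjc1 (connexin 45) was nearly level, at 2639 ± 159 in wild type and 2345 ± 426 in Tbx3 cKO (SD, n = 3 each).

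Marker lists of other cell types were described in the same way, with wild type given before Tbx3 cKO. All 8 macrophage genes were positive (median log2 fold change 1.86), with C1qa at 86.6 ± 17.8 against 373 ± 157 and C1qc at 111 ± 28.2 against 486 ± 241 (SD, n = 3 each). Erythrocyte genes (8 of 8 positive) stood at a median of 2.60, with Ahsp at 104 ± 70.1 against 454 ± 158. The 10 ganglion cell genes were all negative, with a median of -3.71. The median was 1.40 for endothelium (7 of 8 positive), 1.61 for mesenchyme (10 of 10 positive) and -2.23 for lens (10 of 10 negative). In none of these 6 lists did a gene pass over all genes by limma. At an unadjusted p under 0.05 by limma stood 8 macrophage, 8 erythrocyte, 8 ganglion cell and 2 endothelial genes. Over all genes tested 6.39% were higher and 7.16% lower at this threshold. Progenitor genes had a median of -0.37, and among them Lhx2 was 4588 ± 293 against 8446 ± 1139 (SD, n = 3 each). Without wild type 1 and Tbx3 cKO 3 the medians were 1.09 for macrophages, 1.37 for erythrocytes, -1.41 for ganglion cells and 0.47 for endothelium. They were -0.05 for mesenchyme (5 of 10 positive), -3.52 for lens and -0.12 for progenitors. Of these lists 1 gene (Alas2 of erythrocytes, limma adjusted p = 0.0323) passed, beside 0.227% of all genes tested. Of the 4 optic stalk genes, Vax1 passed over all genes by limma, at 67.8 ± 16.1 against 644 ± 243 (SD, n = 3 each, limma adjusted p = 0.0378, and 0.0599 without these libraries). Of 15 relatives of the members none passed, with a median of 0.06 (-0.05 without these libraries), and at an unadjusted p under 0.05 by limma stood only Gjb6, at 3.70 ± 3.76 against 18.1 ± 1.67.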
